A study of Mus musculus with 56 samples.

Results

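The genes described are 9 of the 21935 gene rows in the deposited matrix, which control the direction of glucose flux in the liver and were picked by symbol. They are Gckr, Pklr, Pfkfb1, Pfkfb3, Pcx, Pck1, Fbp1, Ppp1r3b and Ppp1r3c. All 9 passed the filter on low counts, as did 14105 of the 21935 genes. The livers came from male C57BL/6J mice that arrived at 5 to 6 weeks of age and were fed CHOW or AMLN diet, a diet rich in fat, fructose and cholesterol, for 36 weeks before 8 weeks of daily subcutaneous dosing. AMLN mice are a model of metabolic dysfunction-associated steatohepatitis (MASH) and had a baseline liver biopsy. They received vehicle, zalfermin low (0.05 mg/kg), zalfermin high (0.2 mg/kg), semaglutide low (3 µg/kg), semaglutide high (120 µg/kg) or zalfermin + semaglutide, and CHOW mice received vehicle. Zalfermin is an analog of fibroblast growth factor 21 and semaglutide is a glucagon-like peptide-1 receptor agonist. The methods of the study give the combination as both low doses, whereas the design text of the deposit names both high doses, and the low doses are used here. Each of the 7 groups held 8 mice, 56 in all.

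The liver takes up glucose after a meal and releases it during a fast. Glucokinase traps glucose in the hepatocyte and is held inactive in the nucleus by its regulatory protein, which Gckr encodes. Glycolysis, with Pklr at its last step, and gluconeogenesis, with Pcx, Pck1 and Fbp1, share most of their reversible enzymes but run in opposite directions. Fructose 2,6-bisphosphate, made by the Pfkfb enzymes, favors the first and inhibits the second. The Ppp1r3 proteins bring protein phosphatase 1 to glycogen, where it turns glycogen synthase on and glycogen phosphorylase off.

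The 56 libraries held 5228187 to 20885786 counted reads. Libraries carried sample numbers in 4 separate number series, which the sources do not explain. By mean correlation of log2 CPM with the other mice of the group, CHOW replicate 8 (Pearson's r = 0.941) and semaglutide low replicate 6 (0.961) stood lowest of all 56. One semaglutide low mouse was excluded by the authors without a mark in the matrix, and all 56 are kept here. The summed level of 8 hepatocyte marker genes moved with the groups. In CPM, reads scaled to a common library total, it ranged from 7.05e+04 to 9.27e+04 in vehicle and from 1.59e+05 to 2.50e+05 in CHOW. It ranged from 8.76e+04 to 1.47e+05 in zalfermin high, 7.34e+04 to 1.30e+05 in semaglutide high and 9.59e+04 to 1.50e+05 in the combination, and from 7.73e+04 to 1.24e+05 over the low doses. All 8 of these markers were called higher in CHOW than in vehicle, 7 in zalfermin high, 6 in the combination and 1 in semaglutide high, and their part in the member results was not tested. Summed hepatic stellate cell markers went the other way, with a median of 1166 CPM in vehicle, 198 in CHOW, 529 in zalfermin high and 442 in the combination. Of 10 macrophage markers 7 were called lower and 2 higher in CHOW, with a median sum of 641 CPM in vehicle and 208.7 in CHOW. Cholangiocyte markers had a median sum of 379 CPM in vehicle, 47.4 in CHOW and 190.7 in the combination. All 5 T cell and all 4 B cell markers were called lower in CHOW, from median sums of 6.94 and 4.99 CPM in vehicle to 2.17 and 3.34. Of the adipocyte markers, Adipoq, Lep and Retn were below the filter, and Cfd had a median of 12.6 CPM in vehicle, 0.177 in CHOW and 0.195 in the combination. The part of these cell types in the member results was not tested either. In bulk liver, fewer cells of a type and less RNA per cell cannot be told apart. Levels are scaled by TMM, which aligns the bulk of the genes between libraries. Without it, on library totals alone, the median difference over all genes moved to -0.465 on the log2 scale for CHOW minus vehicle, to -0.21 for zalfermin high and to -0.25 for the combination, so small increases are relative to that choice.

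Per length of transcript, Fbp1 and Pck1 were the most abundant of the 9 genes, with means over all 56 mice of 771 and 561 RPKM, which is CPM per kilobase of exon. Pcx and Pklr followed at 197 and 165. Ppp1r3b at 32.4, Gckr at 26.9, Pfkfb1 at 7.40, Ppp1r3c at 7.01 and Pfkfb3 at 3.12 were lower on the same scale. The spread between mice of a group also differed. The fitted biological coefficient of variation was 11% for Gckr, 12.2% for Pcx and 12.8% for Fbp1, and it was 24.9% for Pklr and 25.6% for Pfkfb1. It reached 36% for Pfkfb3, 37.6% for Pck1, 39.5% for Ppp1r3c and 44.5% for Ppp1r3b. The same size of change was therefore far easier to resolve in Gckr, Pcx and Fbp1 than in the Ppp1r3 genes. When the 7 group means of each gene were placed in order, 0 of the 54 steps between neighbors passed an exact two-sided permutation test after adjustment. One step had an unadjusted p under 0.05, from CHOW to zalfermin low for Pklr, with exact p = 0.0028 and adjusted p = 0.151. Groups were sorted by the same means and only neighbors were compared, so these tests say nothing of wider gaps, such as CHOW against vehicle.

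**Figure D1:**
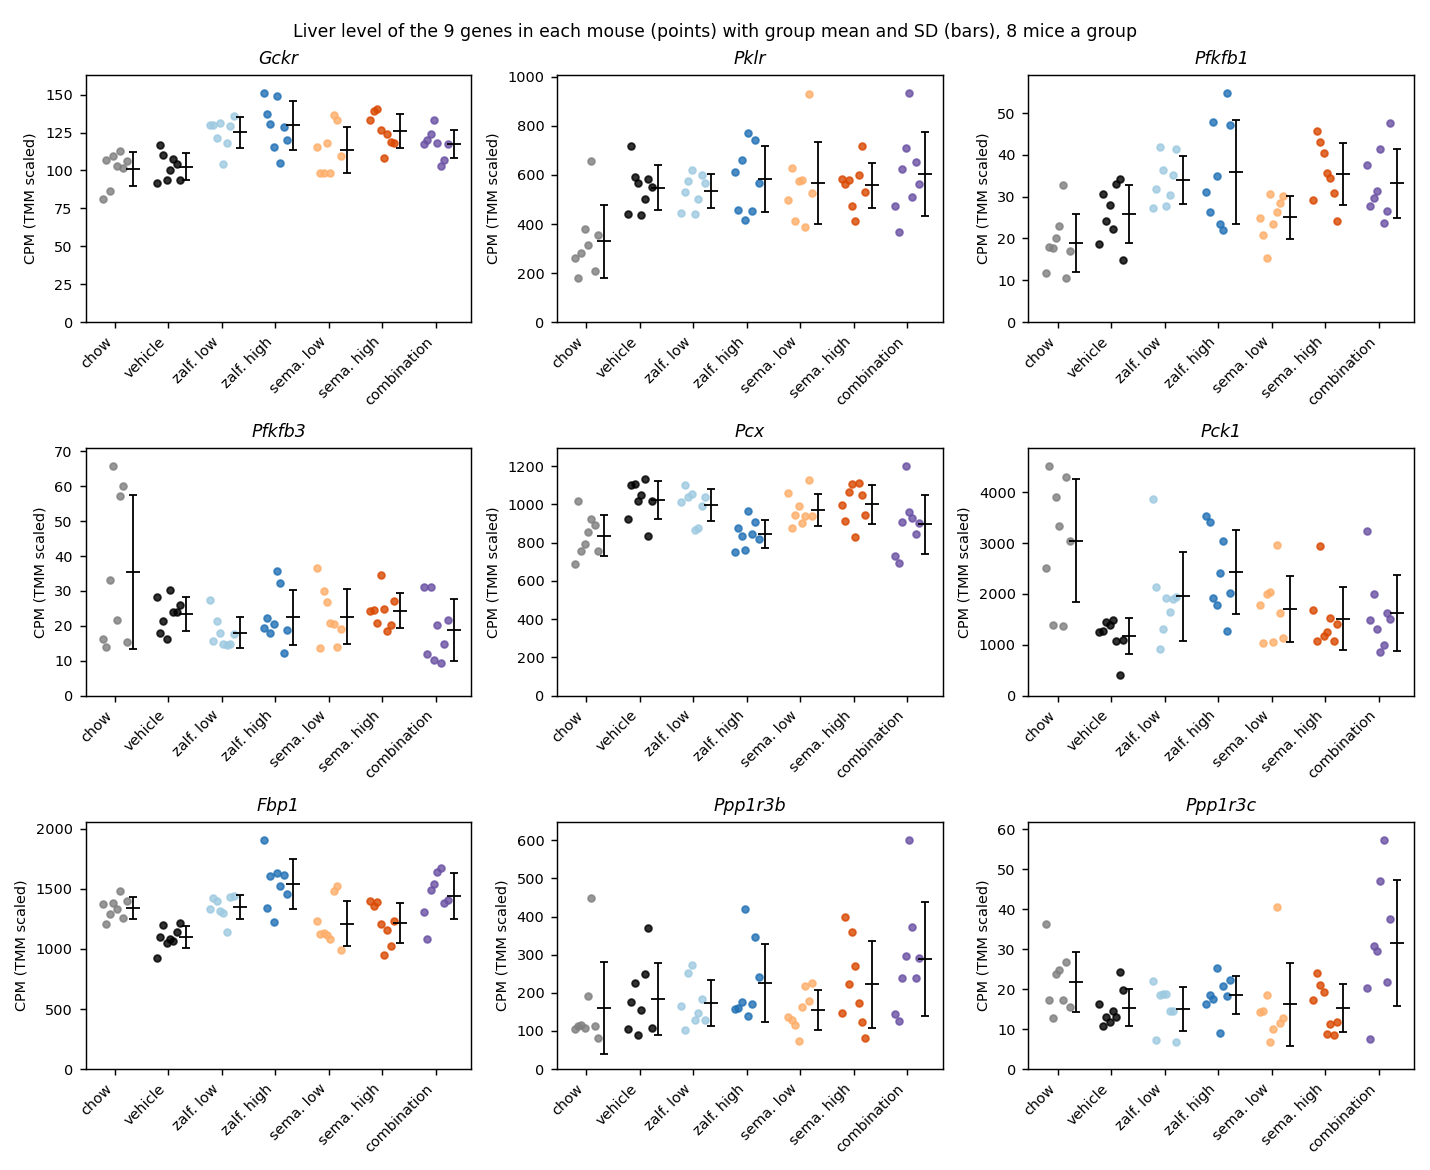
CPM of each of the 9 genes in every mouse, with 1 panel a gene, the 7 groups along the horizontal axis and bars for the mean and SD of 8 mice. Pck1 was spread from 1371 to 4511 CPM in CHOW, Fbp1 of zalfermin high lay above all vehicle mice, and the combination held the highest Ppp1r3b and Ppp1r3c values.

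Against vehicle, edgeR's quasi-likelihood test with Benjamini-Hochberg adjustment over 14105 genes called 6 of the 9 genes in CHOW, where 55.4% of all genes were called. Pck1, Fbp1 and Pfkfb3 were higher in CHOW and Pklr, Pfkfb1 and Pcx were lower. On library totals alone the split was 1 higher and 5 lower. Zalfermin high had 4 called members, Gckr, Pck1 and Fbp1 higher and Pcx lower, against 17.2% of all genes. The combination had 2, Fbp1 and Ppp1r3c, both higher, against 20.9%, which is close to that background. On library totals the combination still had 2, with Ppp1r3c higher and Pcx lower. Semaglutide high had 1, Gckr, against 2.43%. In zalfermin low 0 members were called, against 0.468% of all genes, with 4 at an unadjusted p under 0.05 and 2 called by DESeq2. In semaglutide low 0 were called, against 0% of all genes, with 0 at an unadjusted p under 0.05 and 0 called by DESeq2. The median log2 difference of the 9 genes from vehicle was -0.02 in CHOW, 0.29 in zalfermin high, 0.15 in semaglutide high and 0.36 in the combination, beside -0.01, -0.02, -0.01 and -0.03 over all genes. These comparisons share the vehicle mice.

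**Figure D2:**
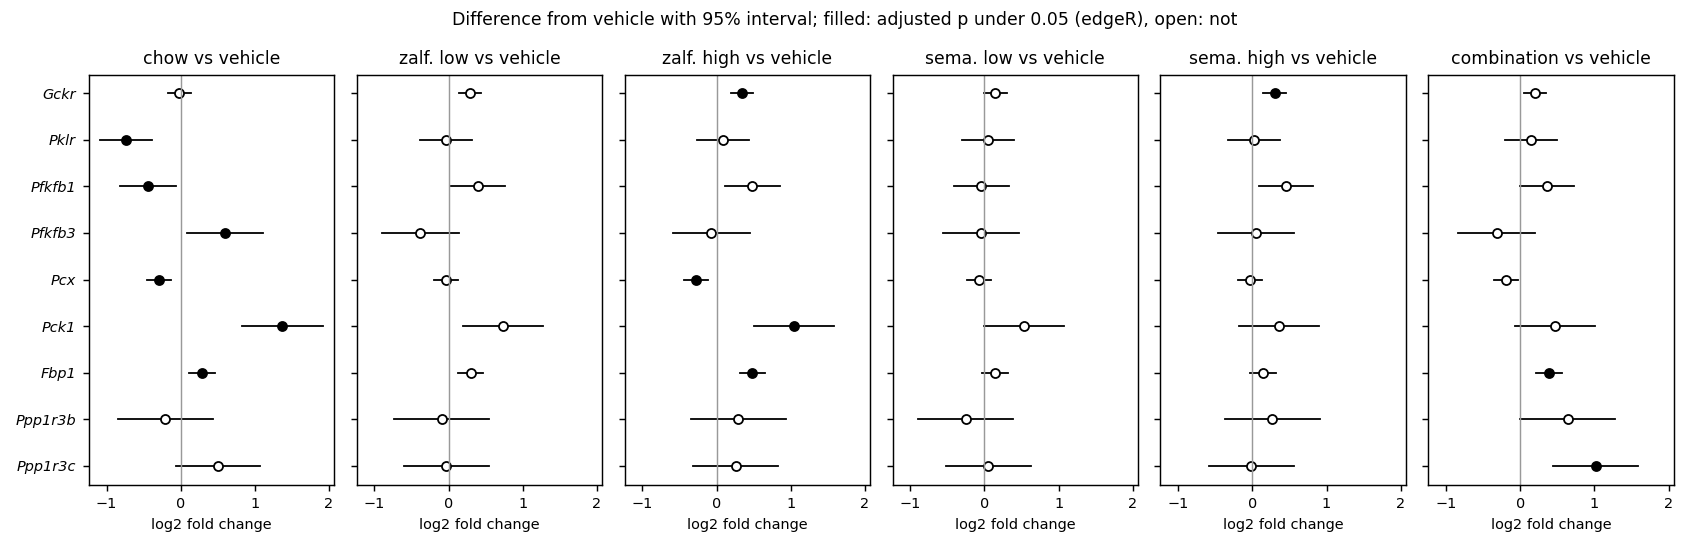
Log2 fold change of each of the 9 genes against vehicle with its 95% interval, 1 panel a group, filled where the adjusted p from edgeR was under 0.05. CHOW has 6 filled points, zalfermin high 4, the combination 2, semaglutide high 1 and the low doses 0.

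Gckr (ENSMUSG00000059434, chr5:31297443-31327314, plus strand, GRCm38), the glucokinase regulatory protein, was higher in both high-dose groups. Vehicle mice ranged from 92.0 to 117 CPM with a median of 102.5, and CHOW mice from 81.2 to 112.6 with a median of 104.7. Zalfermin high ran from 105.1 to 151 with a median of 129.8, and semaglutide high from 108 to 141 with a median of 125.6. The lower ends of both treated groups reached into the vehicle range, but all 8 mice of each were above the vehicle median. The difference from vehicle was 0.34 on the log2 scale (SE 0.08, adjusted p = 0.00105) for zalfermin high and 0.30 (SE 0.08, adjusted p = 0.0241) for semaglutide high. On library totals these were 0.15 (adjusted p = 0.137) and 0.17 (adjusted p = 0.189), so both calls were lost, and the semaglutide high call was also lost when any 1 of 4 mice was left out (vehicle replicate 8, semaglutide high replicates 2, 3 and 4), with adjusted p up to 0.0808. Zalfermin low, with 104.5 to 136 CPM and a median of 129.6, had a difference of 0.29 (SE 0.08, adjusted p = 0.0621). That value passed the threshold without semaglutide low replicate 6 (adjusted p = 0.0385) and by DESeq2 (adjusted p = 0.00787). The combination, at 103 to 133 CPM, had 0.20 (SE 0.08, adjusted p = 0.0578), which turned to -0.02 on library totals. It passed the threshold by DESeq2 (adjusted p = 0.0447), in a fit of only the groups compared (adjusted p = 0.0409) and without any 1 of semaglutide low replicate 6, vehicle replicates 2 and 3 and combination replicates 6 and 7, with adjusted p from 0.0313 to 0.049. CHOW and vehicle differed by -0.02, with a 95% interval from -0.17 to 0.13, and by -0.48 on library totals (adjusted p = 2.24e-07).

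Gckr was also higher in both high-dose groups and the combination than in CHOW. Its difference from CHOW was 0.36 in zalfermin high (SE 0.08, adjusted p = 0.000237), 0.32 in semaglutide high (SE 0.08, adjusted p = 0.000853) and 0.22 in the combination (SE 0.08, adjusted p = 0.0261). The last was lost without CHOW replicate 1, CHOW replicate 3 or combination replicate 4, with adjusted p up to 0.0762, and in a fit of only the groups compared. Semaglutide low overlapped vehicle widely, at 98.1 to 136.7 CPM.

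Pklr (ENSMUSG00000041237, chr3:89136142-89146784, plus strand), the liver and red cell pyruvate kinase that ends glycolysis and a known target of the carbohydrate response factor ChREBP, was the glycolytic member that most set the diets apart. CHOW mice ranged from 178 to 658 CPM with a median of 297.7, and vehicle mice from 437 to 717.5 with a median of 559. Of the 8 CHOW mice, 7 lay below every vehicle mouse and CHOW replicate 6, at 658 CPM, lay within the vehicle range. The difference was -0.74 on the log2 scale (SE 0.18, adjusted p = 0.000485), with adjusted p no higher than 0.00561 under any alternative. No treatment moved Pklr from vehicle past the threshold, and the group medians of the treated AMLN mice were between 548.7 and 595.6 CPM. Against CHOW it was higher by 0.83 in zalfermin high (adjusted p = 0.000269), 0.76 in semaglutide high (adjusted p = 0.000641) and 0.88 in the combination (adjusted p = 0.000149). Exons of Pklr overlap those of Hcn3 on the opposite strand over 711 bases, and the sources do not state whether strand was used in counting.

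RefSeq gives 2 starts for mouse Pklr, and gene counts do not tell them apart. The downstream one is shown because it is the member start with most matches to the 5 motifs searched, here CACGGG once on each strand in capitals, which is the core of a carbohydrate response element. The window is the 250 bases before the start, chr3:89136373-89136622 on the plus strand of GRCm38.
Pklr: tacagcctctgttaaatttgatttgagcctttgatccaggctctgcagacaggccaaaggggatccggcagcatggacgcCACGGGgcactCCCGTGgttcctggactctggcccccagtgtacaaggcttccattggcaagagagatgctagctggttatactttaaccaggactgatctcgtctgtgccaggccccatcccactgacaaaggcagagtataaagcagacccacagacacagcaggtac
The matches begin 170 and 159 bases before the start. CACGGG on either strand was found at least once in 8.46% of the 32851 mouse promoter windows of that length, and the share with 2 matches was not counted. These are matches of letters, and binding was not measured in these data.

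Pfkfb1 (ENSMUSG00000025271, chrX:150588229-150643878, plus strand) encodes the liver form of the enzyme that both makes and removes fructose 2,6-bisphosphate. CHOW mice ranged from 10.5 to 32.8 CPM with a median of 17.8, vehicle mice from 14.9 to 34.3 with a median of 26.2, and semaglutide high from 24.3 to 45.7 with a median of 35.1. The groups overlapped, and 2 of 8 CHOW mice lay below every vehicle mouse. The CHOW minus vehicle difference of -0.44 (SE 0.19, adjusted p = 0.0441) was lost when any 1 of 11 of the 16 mice was left out, with adjusted p up to 0.118. Against CHOW, Pfkfb1 was higher in zalfermin high by 0.93 (SE 0.19, adjusted p = 0.000137), in semaglutide high by 0.90 (SE 0.19, adjusted p = 0.000159) and in the combination by 0.80 (SE 0.19, adjusted p = 0.000919). All 8 mice of each of these groups were above the CHOW median. The differences of the same groups from vehicle were 0.48, 0.46 and 0.36 and had adjusted p = 0.0647, 0.19 and 0.163. That of zalfermin high passed the threshold without any 1 of 5 mice, with adjusted p down to 0.0347. These were vehicle replicates 6 and 7 and zalfermin high replicates 2, 5 and 6. Exons of Pfkfb1 overlap those of Apex2 on the opposite strand over 123 bases.

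Pfkfb3 (ENSMUSG00000026773, chr2:11471433-11554077, minus strand), the form of that enzyme with the strongest kinase side, was uneven within CHOW. The 8 CHOW mice measured 14.1, 15.4, 16.2, 21.7, 33.3, 57.3, 60.1 and 65.7 CPM, while vehicle mice ran from 16.2 to 30.2. Above every vehicle mouse were 4 of them and below every vehicle mouse 3. The difference of 0.59 (SE 0.26, adjusted p = 0.0498) was lost under 5 of 7 other settings, with adjusted p up to 0.622 on library totals, and by leaving out any 1 of 11 mice. Within the number series it was -0.57 in series A (2 CHOW and 2 vehicle mice), 0.60 in series B (1 and 3) and 0.85 in series C (3 and 2). The 3 mice of series D, all CHOW or vehicle, were left out of this split. The combination, at 9.25 to 31.2 CPM, was lower than CHOW by 0.91 on the log2 scale (SE 0.27, adjusted p = 0.00626). The call was lost in a fit of only the groups compared (adjusted p = 0.0792), and the difference was 0.29 in series A, -1.27 in series B and -1.26 in series C. Zalfermin high was lower than CHOW by 0.66 (SE 0.26, adjusted p = 0.0424), a call lost without any 1 of 9 mice, CHOW replicate 4 among them (adjusted p = 0.157), and on library totals (adjusted p = 0.213). No treated group was called against vehicle.

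Among the gluconeogenic members, Pck1 and Fbp1 were higher and Pcx lower in both CHOW and zalfermin high than in vehicle. Pck1 (ENSMUSG00000027513, chr2:173153048-173159273, plus strand), the cytosolic phosphoenolpyruvate carboxykinase that rises in fasting, had the largest of these differences. Vehicle mice ranged from 397 to 1495 CPM with a median of 1266, CHOW from 1371 to 4511 with a median of 3195, and zalfermin high from 1270 to 3533 with a median of 2224. In all, 6 of 8 CHOW mice and 7 of 8 zalfermin high mice were above every vehicle mouse. The difference from vehicle was 1.37 on the log2 scale for CHOW (SE 0.28, adjusted p = 4.19e-05) and 1.04 for zalfermin high (SE 0.28, adjusted p = 0.00539), or 2.59-fold and 2.06-fold. Neither call was lost by leaving out any mouse or under any other setting, library totals included. Within the number series, CHOW minus vehicle was 1.41 in A, -0.05 in B, where only 1 CHOW mouse was present, and 2.0 in C. Zalfermin high minus vehicle was 1.17, 0.71 and 1.30 in the same series. The 3 mice of series D, all CHOW or vehicle, were left out of this split.

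The other treated AMLN groups had Pck1 medians between those of vehicle and CHOW. They were 1916 CPM in zalfermin low, 1704 in semaglutide low, 1328 in semaglutide high and 1495 in the combination, and the highest mouse of each lay between 2936 and 3861 CPM. Differences from vehicle were 0.73, 0.53, 0.36 and 0.47, none called. Pck1 was lower than CHOW in semaglutide high, by 1.01 on the log2 scale (SE 0.28, adjusted p = 0.00283), and in the combination, by 0.91 (SE 0.28, adjusted p = 0.00893). For zalfermin high the difference from CHOW was not called. Between the high doses, zalfermin minus semaglutide was 0.68 with a 95% interval from 0.14 to 1.22 and adjusted p = 0.331.

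The Pck1 promoter is shown for its cyclic AMP response element core, TTACGTCA, in capitals. The 250 bases before the RefSeq start lie at chr2:173152823-173153072 on the plus strand of GRCm38.
Pck1: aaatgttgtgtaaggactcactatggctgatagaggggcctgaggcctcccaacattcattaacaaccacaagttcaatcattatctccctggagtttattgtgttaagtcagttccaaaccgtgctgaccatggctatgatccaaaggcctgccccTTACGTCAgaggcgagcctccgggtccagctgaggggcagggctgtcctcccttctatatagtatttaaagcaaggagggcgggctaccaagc
The match begins 93 bases before the start. TTACGTCA on either strand was in 0.447% of the 32851 windows, and TGACGTCA, which shares its last 6 letters, was in 1.55% and in none of the member windows. The forkhead motif TGTTTAC, in 3.17% of windows, was in none of the member windows either.

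Fbp1 (ENSMUSG00000069805, chr13:62864753-62888282, minus strand), fructose-1,6-bisphosphatase, which fructose 2,6-bisphosphate inhibits, was the member whose treated and vehicle mice separated most cleanly. Vehicle mice ranged from 928 to 1216 CPM with a median of 1091, and zalfermin high from 1220 to 1906 with a median of 1564. The 2 groups did not overlap, as was so for 4.80% of all genes in that comparison. The difference was 0.48 (SE 0.09, adjusted p = 6.26e-05) and on library totals it was 0.29 (adjusted p = 0.00264). The combination ran from 1081 to 1671 CPM with a median of 1450, and 7 of its 8 mice were above every vehicle mouse. Its difference was 0.39 (SE 0.09, adjusted p = 0.000985), and on library totals 0.17 (adjusted p = 0.0757), where the call was lost.

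Fbp1 in CHOW ran from 1207 to 1480 CPM with a median of 1352, and 7 of 8 mice were above every vehicle mouse. The difference of 0.29 (SE 0.09, adjusted p = 0.00507) was called higher with TMM and lower, at -0.17 (adjusted p = 0.0414), on library totals, so its direction rests on the scaling. Zalfermin low, at 1141 to 1439 CPM, had 0.30 (SE 0.09, adjusted p = 0.112), called by DESeq2 alone (adjusted p = 0.0215). Semaglutide low and high had medians of 1128 and 1220 CPM and were not called. Zalfermin high minus semaglutide high was 0.34 (SE 0.09, 95% interval 0.17 to 0.51), with adjusted p = 0.0562 by edgeR and from 0.0192 to 0.182 over the alternatives.

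Pcx (ENSMUSG00000024892, chr19:4510472-4621752, plus strand), the mitochondrial pyruvate carboxylase that supplies oxaloacetate, went the other way. Vehicle mice ranged from 834 to 1134 CPM with a median of 1033, zalfermin high from 751 to 967 with a median of 841.8, and CHOW from 688 to 1018 with a median of 826. No mouse of zalfermin high or CHOW reached the vehicle median, although the groups overlapped. The difference from vehicle was -0.28 in zalfermin high (SE 0.08, adjusted p = 0.0172) and -0.29 in CHOW (SE 0.08, adjusted p = 0.00278), and on library totals it was larger, at -0.46 and -0.75. Both calls held under every other setting and with any 1 mouse left out. In the combination, at 691.5 to 1198 CPM, the difference was -0.19 (SE 0.08, adjusted p = 0.0932), called on library totals (-0.42, adjusted p = 7.76e-05). With TMM scaling it passed the threshold without combination replicate 4, the highest of its group at 1198 CPM (adjusted p = 0.0158). Semaglutide high, with a median of 1020 CPM, was higher than CHOW by 0.26 (SE 0.08, adjusted p = 0.0114), a call lost in a fit of only the groups compared (adjusted p = 0.061).

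Both glycogen-targeting subunits had their highest group mean in the combination, as did Pklr. Ppp1r3c (ENSMUSG00000067279, chr19:36731731-36736653, minus strand), also called protein targeting to glycogen, was called higher in the combination than in vehicle and in 3 of the 4 single treatments. The combination mice measured 7.48, 20.3, 21.9, 29.6, 30.7, 37.5, 47.1 and 57.3 CPM. Vehicle mice ranged from 10.7 to 24.2 with a median of 13.8, and the medians of the single treatments were 13.6 to 18.4. The highest 5 were above every vehicle mouse and the lowest was below every vehicle mouse. The difference from vehicle was 1.02 on the log2 scale (SE 0.29, adjusted p = 0.00901), or 2.02-fold, and was called in every alternative, with adjusted p up to 0.0345 without combination replicate 6. Within the number series it was 0.54 in A, 1.97 in B and 0.69 in C, where the combination had 4, 2 and 2 mice.

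Against the single treatments, Ppp1r3c was 1 of 9 members called in each of 3 comparisons. The combination was higher than zalfermin low by 1.05 (SE 0.29, adjusted p = 0.019), where 6.62% of all genes were called. It was higher than semaglutide low by 0.97 (SE 0.29, adjusted p = 0.0431), with 4.21% of all genes called, and than semaglutide high by 1.03 (SE 0.29, adjusted p = 0.0469), with 1.89%. All 3 calls were lost when the fit held only the groups compared, with adjusted p = 0.0532, 0.173 and 0.135. They were also lost without 1 mouse, 2 different mice for zalfermin low, 11 for semaglutide low and 10 for semaglutide high, combination replicate 6 in each case. Without semaglutide low replicate 6, at 40.6 CPM the highest of its group, the difference from semaglutide low was larger, at 1.30 (adjusted p = 0.00166). Against semaglutide high the difference was -0.07 in number series A, 2.37 in B and 1.504 in C. Combination and zalfermin high differed by 0.76 (95% interval 0.19 to 1.33, adjusted p = 0.269).

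The Ppp1r3c promoter is shown because it belongs to the member most raised in the combination and holds CACGTG, the E-box core that is 1 of the 5 motifs searched, in capitals. The window is chr19:36736605-36736854 on the minus strand of GRCm38, from RefSeq.
Ppp1r3c: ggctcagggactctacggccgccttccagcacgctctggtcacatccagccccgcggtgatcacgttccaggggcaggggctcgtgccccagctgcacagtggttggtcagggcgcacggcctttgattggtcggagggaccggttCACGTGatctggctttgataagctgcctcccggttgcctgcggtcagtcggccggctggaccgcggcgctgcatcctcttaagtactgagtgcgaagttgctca
CACGTG begins 104 bases before the start and was in 6.02% of the 32851 windows. Of the 9 members 8 had a promoter entry, with 14 starts in all, and 6 starts of 5 members held at least 1 of the 5 motifs.

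Ppp1r3b (ENSMUSG00000046794, chr8:35375739-35388139, plus strand), the main hepatic targeting subunit, was also highest in the combination, with more spread. The combination ranged from 125 to 601 CPM with a median of 265, vehicle from 88.5 to 369 with a median of 166, and CHOW from 82.8 to 448 with a median of 113. All 8 combination mice were above the CHOW median, yet the ranges overlapped widely. The combination was higher than CHOW by 0.85 (SE 0.33, adjusted p = 0.0409), a call lost without any 1 of 10 mice (adjusted p up to 0.156). The call was also lost with the number series as a covariate and in a fit of only the groups compared (adjusted p up to 0.096). The difference from vehicle was 0.64 (95% interval 0.002 to 1.28, adjusted p = 0.155). No other group of Ppp1r3b was called in any comparison.

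The remaining comparisons called few members. Combination minus zalfermin high had 0 of 9, with 2 at an unadjusted p under 0.05, 0 by DESeq2 and 0.503% of all genes called. Zalfermin high minus zalfermin low had 0, with 2 unadjusted, 0 by DESeq2 and 1.84% of all genes. Semaglutide high minus semaglutide low had 0, with 1 unadjusted, 0 by DESeq2 and 0% of all genes. Zalfermin high minus semaglutide high had 0, with 3 unadjusted, 1 by DESeq2 and 0.447% of all genes. A p above the threshold does not show that these groups were alike, since the intervals of Pck1, Ppp1r3b and Ppp1r3c span more than 1 log2 unit.

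Against CHOW, 4 to 6 members were called in the 3 treated groups compared, both high doses and the combination. The combination had 6 called, Gckr, Pklr, Pfkfb1 and Ppp1r3b higher and Pfkfb3 and Pck1 lower, where 32.4% of all genes were called. On library totals all 9 were called, 7 higher and 2 lower. Zalfermin high had 4, Gckr, Pklr and Pfkfb1 higher and Pfkfb3 lower, against 37.2%, and on library totals it had 5, all higher. Semaglutide high had 5, Gckr, Pklr, Pfkfb1 and Pcx higher and Pck1 lower, against 39.9%. Pck1 was thus called below CHOW in semaglutide high and the combination, while zalfermin high had no such call. These 3 comparisons share the CHOW mice.

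Whether the combination exceeded the sum of its parts was tested as an interaction, the combination minus zalfermin low minus semaglutide low plus vehicle. With edgeR 0 of 9 members were called and 0 by DESeq2, against 0.0142% of all genes, and 4 members had an unadjusted p under 0.05. The log2 difference of Ppp1r3c from vehicle was -0.03 with zalfermin low, 0.05 with semaglutide low and 1.02 with the combination. The interaction of Ppp1r3c was 0.999 (95% interval 0.19 to 1.81, adjusted p = 0.628), and 1.33 without semaglutide low replicate 6 (adjusted p = 0.291). Ppp1r3b had differences of -0.10, -0.25 and 0.64 in the same groups, with an interaction of 0.99 (95% interval 0.09 to 1.899, adjusted p = 0.704). Gckr and Pck1 lay below the sum, with interactions of -0.24 (95% interval -0.45 to -0.02, adjusted p = 0.687) and -0.80 (95% interval -1.56 to -0.04, adjusted p = 0.727). Fbp1 was at 0.39 in the combination where the low doses summed to 0.44, with an interaction of -0.04 (95% interval -0.29 to 0.20).

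**Figure D3:**
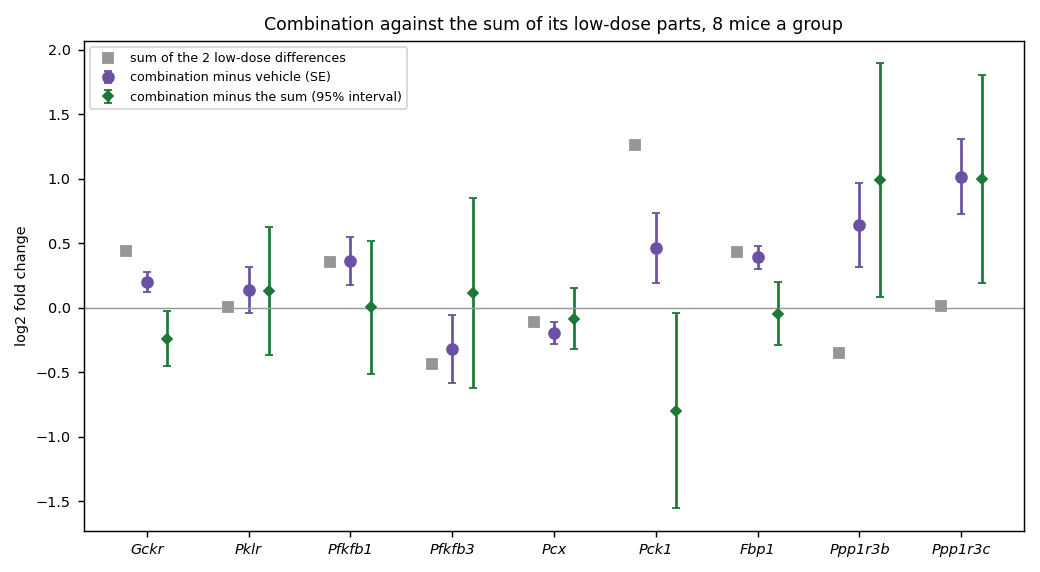
Log2 fold change against vehicle for the 9 genes: the sum of the zalfermin low and semaglutide low differences (squares), the combination with its SE (circles), and the combination minus that sum with its 95% interval (diamonds). The intervals of Ppp1r3c and Ppp1r3b lie above 0 and those of Gckr and Pck1 below it before adjustment over all genes, and 0 of the 9 passed after it.

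The wider pathway was followed in 109 other genes of glucose, fructose, pyruvate and glycogen metabolism and its hormonal control, 108 of them tested. In CHOW 41 were called higher and 31 lower than vehicle. In zalfermin high 22 were higher and 5 lower, in the combination 17 and 7, in semaglutide high 4 and 0, in zalfermin low 2 and 0, and in semaglutide low 0 and 0. The shares called were 66.7% in CHOW, 25% in zalfermin high and 22.2% in the combination, beside 55.4%, 17.2% and 20.9% of all genes. The balance of directions rested on TMM scaling: on library totals it was 9 higher and 64 lower in CHOW, 8 and 22 in zalfermin high, and 5 and 24 in the combination.

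**Figure D4:**
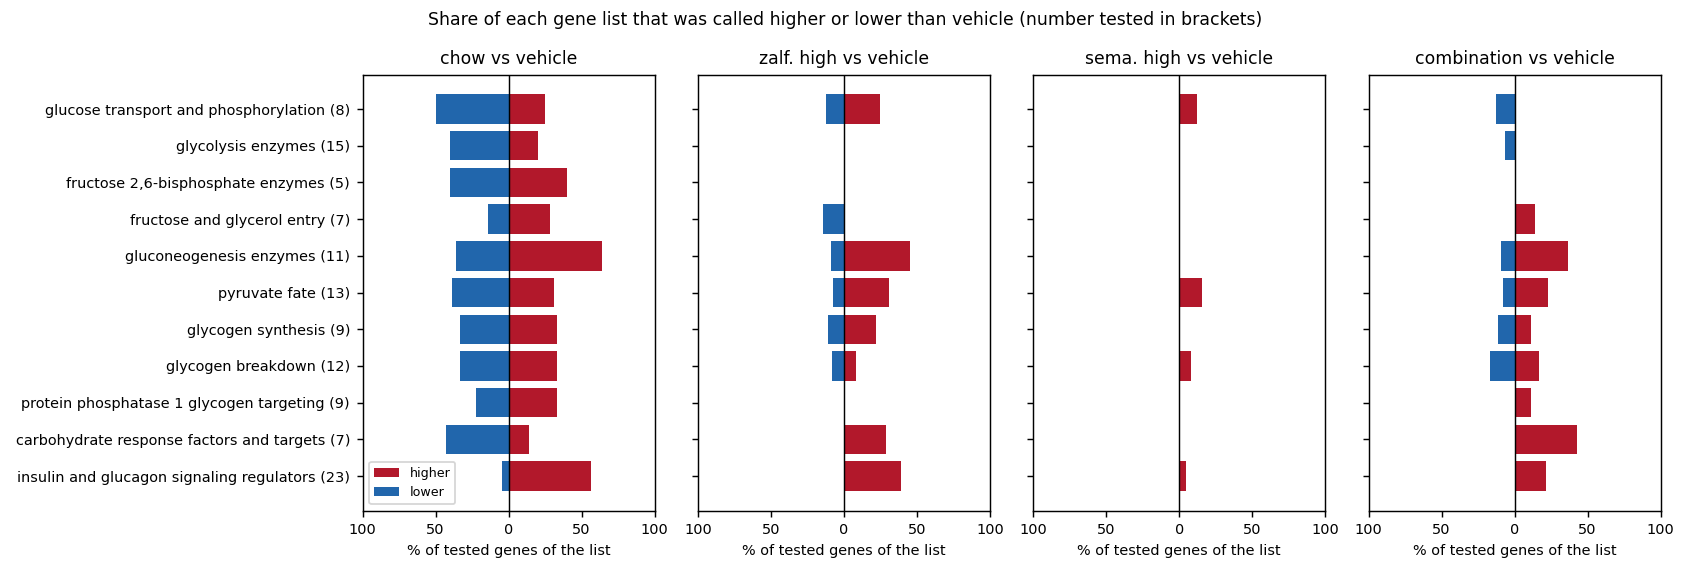
Share of the tested genes of each of 11 pathway lists called higher (right) or lower (left) than vehicle by edgeR with TMM scaling, for CHOW, zalfermin high, semaglutide high and the combination. Of 23 insulin and glucagon signaling regulators 13 were higher and 1 lower in CHOW and 9 were higher in zalfermin high, whereas of 15 glycolysis enzymes 0 were called in zalfermin high. Of all genes 55.4% were called in CHOW and 17.2% in zalfermin high.

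Among 11 gluconeogenesis enzymes, 3 of them members, 7 were higher and 4 lower in CHOW, 5 and 1 in zalfermin high and 4 and 1 in the combination. Of all genes, 55.4%, 17.2% and 20.9% were called in these groups. Got1, the cytosolic aspartate aminotransferase, was higher than vehicle in CHOW by 1.12 (adjusted p = 6.09e-05), zalfermin low by 1.01 (adjusted p = 0.0246), zalfermin high by 1.73 (adjusted p = 3.59e-07) and the combination by 1.05 (adjusted p = 0.000763). Slc37a4, the glucose 6-phosphate transporter of the endoplasmic reticulum, was higher by 0.56 in zalfermin high and 0.53 in the combination. G6pc3, a glucose 6-phosphatase found in most tissues, was lower in the combination by 0.43 (adjusted p = 0.0181). Among 15 glycolysis enzymes 3 were higher and 6 lower in CHOW, led by Pkm at -0.88 and Ldhb at -0.84, and in the combination Ldhb was the single call at -0.69. Hk2, a hexokinase that most hepatocytes express little, fell from a mean of 10.6 CPM in vehicle to 1.05 in CHOW, 3.87 in zalfermin high and 3.65 in the combination.

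Pyruvate and glycogen genes moved in both directions. Pdk4, a kinase that turns off pyruvate dehydrogenase, was lower than vehicle in CHOW by 2.37 and in zalfermin high by 1.11 on the log2 scale, while Pdk1 and Pdk2 were higher in zalfermin high by 0.46 and 0.54. Mpc2, a subunit of the mitochondrial pyruvate carrier, was higher by 0.56 in the combination (adjusted p = 8.48e-06). Gys2, the liver glycogen synthase, was higher by 0.85 in CHOW and 0.51 in zalfermin high, and Gyg, the glycogen primer, was lower by 1.15, 0.69 and 0.58 in CHOW, zalfermin high and the combination. Pygl, the liver glycogen phosphorylase, was higher by 0.39 in zalfermin high and 0.36 in the combination. Of the 9 tested phosphatase subunits Ppp1r3c was the single call in the combination and 0 were called in zalfermin high, beside 20.9% and 17.2% of all genes.

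Regulators known to act on genes of glucose metabolism were followed as a list. Of 23 tested, 13 were higher and 1 lower in CHOW, 9 were higher in zalfermin high and 5 in the combination. Beside these stand 55.4%, 17.2% and 20.9% of all genes called, to which the CHOW and combination counts are close. On library totals CHOW had 1 higher and 6 lower, zalfermin high 3 and 1, and the combination 2 and 3. Hnf4a, a hepatocyte transcription factor, was higher by 1.19 in CHOW, 0.64 in zalfermin high, 0.56 in semaglutide high and 0.80 in the combination. Igfbp1, the single lower gene of the list in CHOW, was lower there by 1.37 (adjusted p = 0.00493). Ppargc1a, a coactivator of gluconeogenic genes, was higher by 0.79 in zalfermin high and 0.78 in the combination. Mlxipl, which encodes ChREBP, was higher by 0.65 and 0.69 in the same groups, whereas Pklr, its target among the members, was not called in either. Mlxipl belongs to a separate list of 7 carbohydrate response factors and targets, with 1 higher and 3 lower in CHOW. In zalfermin high 2 of that list were higher and in the combination 3, Khk among the latter by 0.39.

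As a description, the gene with the most similar profile over the 56 mice was found for each member among 7599 genes with a mean of 10 CPM or more. These mice share groups and scaling, so no p is given. Pck1 was most like Slc7a2, a cationic amino acid transporter, with Pearson's r of 0.88, and 0.86 after group means were removed. Fbp1 was most like Hgd, of tyrosine breakdown (0.84 and 0.74), and Pklr most like Gpi1, the glucose 6-phosphate isomerase (0.83 and 0.75), and Elovl6, a fatty acid elongase (0.83 and 0.75). Ppp1r3b was most like Fgf1 (0.73 and 0.77) and the clock gene Cry1 (0.73 and 0.71), and Ppp1r3c most like Ccnf (0.72 and 0.70). Gckr was most like a fellow member, Pfkfb1 (0.64 and 0.41). Ppp1r3b and Ppp1r3c had an r of 0.50, and 0.49 within groups.

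**Figure D5:**
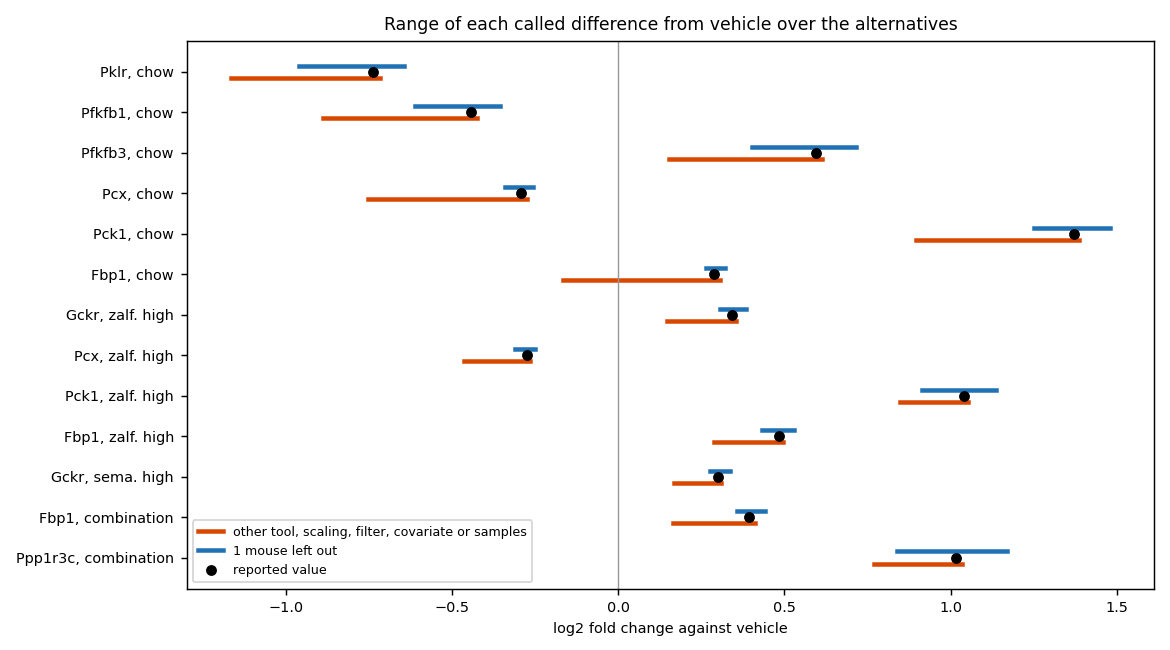
Range of the log2 fold change against vehicle for the 13 called pairs of gene and group: black points are the reported values, blue bars the range with 1 mouse left out, orange bars the range over other tools, scalings, filters, the series covariate and fits of only the groups compared. The orange bar of Fbp1 in CHOW crosses 0, at -0.17 on library totals, and the others stay on 1 side of 0.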

How the data were processed

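The deposited matrix holds raw read counts per gene, made by the authors from stranded poly(A) libraries. The methods of the study name STAR with GRCm38, whereas the submitters' processing notes list Trim Galore 0.6.4 and Salmon 1.9.0. The counting program and its use of strand are not given in the sources used here. A gene was tested if at least 3 mice had at least 5 reads each (14105 of 21935 genes, and 4352 had no reads at all). Counts were scaled by TMM and tested with edgeR 4.0.16 in R 4.3.3, all 7 groups in 1 quasi-likelihood fit, p-values adjusted by Benjamini-Hochberg over all genes tested, threshold 0.05. SE is the log2 fold change divided by the root of F, and 95% intervals use the normal quantile. Every member was named. From each pathway list the rule chose up to 3 called genes with the largest change and a mean of 1 CPM or more. That selection is given in part, and several genes called lower in CHOW are among those left unnamed. The members and lists were chosen with earlier results of these data known. Mice are the replicates. Some genes of the pathway are not reported here, among them 1 lower in CHOW that this rule chose. DESeq2 1.42.0 and other alternatives are given in the closing section. Promoters are from RefSeq (GRCm38.p6).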

Additional observations from a re-analysis of the deposited data

Results flagged for a closer look

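In 4 of the 63 sets of 8 mice (9 genes in 7 groups), 1 mouse lay far from the other 7 by Dixon's criterion at 95% on log2 CPM. Chance alone meets this criterion in about 1 of 20 sets. It was not applied to CPM, the scale of the values given next, where other sets can stand out. Pck1 was lowest in vehicle replicate 7, at 397.4 CPM against 1075 to 1495 in the others, and highest in semaglutide high replicate 3, at 2936 against 1071 to 1677. Fbp1 was lowest in zalfermin low replicate 6, at 1141 against 1296 to 1439. Ppp1r3c was lowest in zalfermin high replicate 5, at 8.981 against 16.29 to 25.33. Without vehicle replicate 7 or any other mouse, the higher Pck1 of CHOW and of zalfermin high was still called, with adjusted p up to 0.000168 and 0.0166.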

How the results depend on the processing

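No paired analysis was possible because no label ties a mouse of one group to a mouse of another, and the number series entered only as a covariate. On library totals alone, Fbp1 in CHOW minus vehicle turned to -0.17 and Gckr in the combination minus vehicle to -0.0236, and the members called became 0 for semaglutide high minus vehicle, 2 each for the combination minus zalfermin low, the combination minus semaglutide low and zalfermin high minus semaglutide high, and 1 for zalfermin high minus zalfermin low, with 2 of 54 steps between neighbors called. DESeq2 called 2 members in zalfermin low minus vehicle and 1 in zalfermin high minus semaglutide high. In the combination minus vehicle it called Gckr as well (adjusted p = 0.0447). With only the groups compared, CHOW minus vehicle lost the calls of Pfkfb1 and Pfkfb3, where 6904 of 14105 genes were called. Each of these 2 calls was also lost without any 1 of 11 mice. With only the groups compared, the combination had 0 called against zalfermin low, semaglutide low and semaglutide high and 3 against CHOW. Without a filter it had 0 against semaglutide low and semaglutide high, and with the number series as a covariate 0 against semaglutide high. With 1 mouse left out, counts ranged from 0 to 1 for zalfermin low minus vehicle, semaglutide high minus vehicle, the combination minus zalfermin low and zalfermin high minus semaglutide high, and from 0 to 2 for the combination minus semaglutide low and minus semaglutide high. Without semaglutide low replicate 6, zalfermin low minus vehicle had 1, zalfermin high minus semaglutide high 1 and the combination minus semaglutide low 2. Beyond the effect of scaling on small differences, the causes were not tested. Pathway counts on library totals were added after the data were seen. Each member had at least 59 reads in every library, so the spread between mice, with fitted biological coefficients of variation of up to 44.5%, limits the precision more than the depth does.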
